A study of Mus musculus with 6 samples.

Results

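The receptors for nucleotides, lysophospholipids and other small ligands, with the orphan receptors that share the Gpr name, were compared between sorted mouse fetal liver cells. The cells were with or without the -77 enhancer of Gata2, a gene whose product directs transcription in early blood progenitors. They are erythroid precursors by their sort only. In -77-/- libraries 9 of 10 erythroid genes were called lower and 10 of 10 monocyte and macrophage genes higher, as given below with other markers. The members were all genes of the deposited table whose symbol is Gpr, P2rx, P2ry, S1pr, Lpar or Fpr followed by a digit. There were 86 of 19436 genes, namely 62 Gpr, 6 P2rx, 8 P2ry, 4 S1pr and 6 Lpar genes, and Fpr genes were not analysed here. RNA came from C57BL/6 embryos at E14.5, from cells sorted as medium for CD71, the transferrin receptor, and negative for Ter119, a marker of later red cell precursors. Wild type embryos, with the enhancer on both alleles, gave 3 libraries, and -77-/- embryos, which lack it on both, gave 3 libraries. The deletion is in the germ line, so every cell of the embryo carries it, the other blood cells of the fetal liver included. Whether the 3 libraries of a genotype stem from separate embryos is not stated, so p-values cover sample-to-sample spread that may be technical.

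Most of the 86 genes encode G protein-coupled receptors, membrane proteins that pass the binding of an outside ligand to a G protein made of an alpha subunit and a beta-gamma pair. P2Y receptors bind nucleotides released by stressed, activated or dying cells, while P2X proteins are ion channels opened by ATP and are not G protein-coupled. Receptors for sphingosine 1-phosphate and lysophosphatidic acid sense lipids that circulate in plasma, to which red cells and platelets contribute, and steer the movement of blood cells. The Gpr name also covers receptors of protons and oxysterols, adhesion receptors with long extracellular parts, and proteins such as Gpr89, Gpr107, Gpr137 and Gpr155 that reside in Golgi or lysosomal membranes. The label of a G protein receptor therefore does not hold for every member, and Gpr137b-ps is a pseudogene by name.

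All values are normalized read counts, that is, the reads of a gene divided by a size factor of its library. The libraries held 16516338 to 20468899 reads and detected 14847 to 18133 genes. Wild type replicate 3 was the least complete, with 50 members at 1 read or more against 75 and 63 in the other wild type libraries and 72, 80 and 80 in the -77-/- libraries. It had the lowest wild type value for 10 of the 27 members called higher below, and values without it are given where they move a result. Gata2 itself had 128, 87.8 and 61.5 in wild type and 74.2, 26.2 and 34.2 in -77-/- libraries, groups that overlap (log2 fold change -1.103 with SE 0.60, limma adjusted p = 0.183). Xist, a transcript of female cells, reached 41877 in wild type replicate 2 and 28.5 to 63.2 in the other libraries. Sex therefore differed within the wild type group, and wild type replicate 2 cannot be a repeat of the same RNA as wild type replicates 1 and 3. Of the 8 X-linked members tested only Gpr174 was called.

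As a sum, transcripts of the members were more abundant in -77-/- cells. The members' values summed to 7417, 7360 and 7092 in wild type and to 12032, 12742 and 11488 in -77-/- libraries, and no wild type library reached any -77-/- library. Of the 86 members, 69 had a mean of at least 10 in the genotype with the higher mean and were tested with limma on log2(value + 1), with Benjamini-Hochberg adjustment over all 15821 genes tested. At an adjusted p of 0.05, 27 were called higher in -77-/- cells (39.1%, against 16.9% of all genes tested) and 5 lower (7.25%, against 15.2%), so that 46.4% were called against 32.2% of all genes. Without -77-/- replicate 3 the count called higher was 17, and the count called lower was 2 without wild type replicate 2 and 3 without -77-/- replicate 2 or 3. The median log2 fold change, -77-/- over wild type, was 2.04 over the members tested and 0.10 over all genes tested. Because a gene could pass the filter through the genotype in which it was high, the origin of the members tested is given: 43 passed in both genotypes, of which 19 were called higher and 5 lower, 22 passed through -77-/- libraries only, of which 8 were called higher, and 4 passed through wild type libraries only, of which 0 were called at this threshold. The median log2 fold change was 1.80 over the 43, 2.84 over the 22 and -1.15 over the 4. The median of 2.04 over all members tested thus includes members that passed only by being high in -77-/- libraries.

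**Figure D1:**
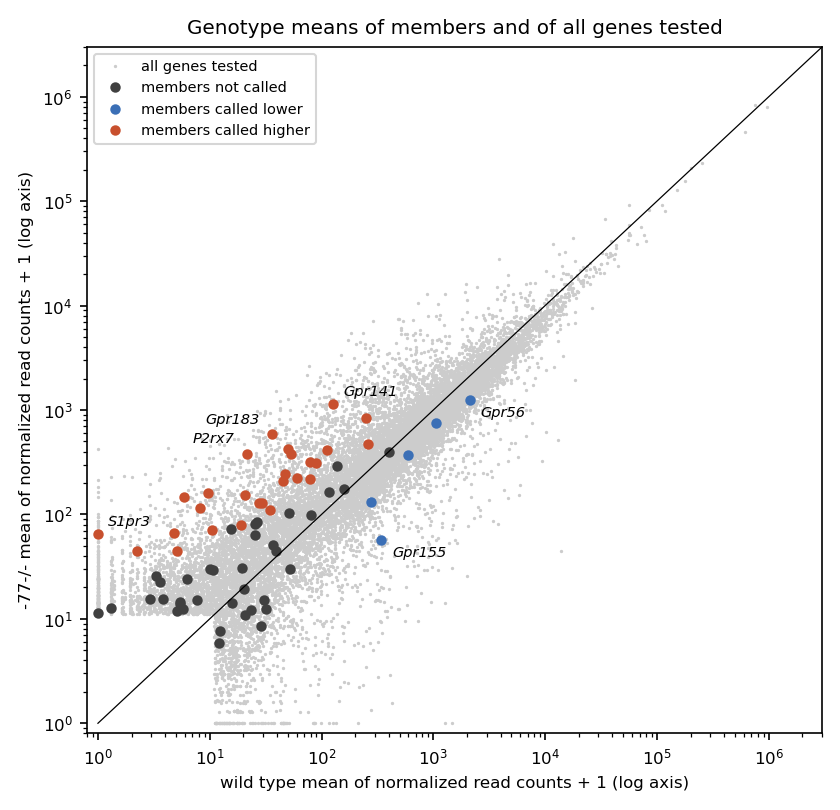
Mean normalized read count plus 1 of each gene tested in wild type (horizontal, log axis) and -77-/- libraries (vertical, log axis). All genes tested are in grey, and the members tested are coloured by their call. The 27 members called higher lie above the diagonal, 20 of them at least 4-fold on the fitted scale, and the 5 called lower lie below it, Gpr155 farthest.

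All 32 called members had libraries of the genotypes that did not overlap, as 43 of the 69 members tested did (62.3%, against 46.5% of all genes tested). Of the 27 called higher, 26 changed by at least 2-fold, and of the 5 called lower, 2 did. Of the 37 members not called, 27 had a log2 fold change above 0, and 25 had a mean under 50 in the higher genotype. Of all 15821 genes tested, 8520 had a log2 fold change above 0. Of the 37, 14 had passed the filter through -77-/- libraries only, and all 22 members that passed so were above 0, which the filter favours. The median standard error of the members not called was 1.25, against 0.48 for the called members, so changes of a few fold were not detectable in many of them at this depth. Before adjustment 5 of the 37 had a p under 0.05. The 17 members not tested had 4 to 46 reads over the 6 libraries, and 13 of them had more reads in -77-/- libraries. Low genes in general lean the same way: of all 19436 genes, 1078 had no read in wild type and 484 had none in -77-/- libraries. The 13 are therefore not read as a trait of the members. The authors' deposited table gives an adjusted p for 75 members, of which 25 were under 0.05 and higher and 5 under 0.05 and lower. Of all genes with an adjusted p in the authors' deposited table, 31.1% were under 0.05, 16.4% higher and 14.7% lower. The calls here and in the authors' deposited table shared 30 of the 32 members in the same direction, the exceptions being P2ry13 and Gpr35.

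The sorted cells differed in other markers too. The summed value of 10 erythroid genes was 33809 to 36297 in wild type and 3273 to 7345 in -77-/- libraries, with 9 of 10 called lower. The summed value of 10 monocyte and macrophage genes was 1519 to 2677 in wild type and 26680 to 38002 in -77-/- libraries, with 10 of 10 called higher. Dendritic cell genes had 8 of 10 called higher and 1 lower (1207 to 1339 against 7516 to 8099), and 9 of 9 lymphoid genes tested were called higher (929 to 1084 against 3307 to 5896). Granulocyte genes had 3 of 10 called higher and 4 lower (13901 to 24197 against 43003 to 47051). Most of that sum was Mpo, with means of 11805 in wild type and 38959 in -77-/- libraries. Prtn3 and Csf3r were called higher as well, and S100a8, S100a9, Camp and Ngp were called lower. Eosinophil, mast cell and basophil genes had 1 of 9 higher and 4 lower (1077 to 2583 against 412 to 521). Megakaryocyte and platelet genes had 1 of 8 higher and 3 lower (679 to 990 against 625 to 854, with Gp1bb at 0 in -77-/- libraries). Among 6 hepatocyte genes tested 1 was called higher (76.8 to 210 against 258 to 1297, with Fgb and Apoa2 at 0 in wild type libraries), as was 1 of 5 endothelial genes (503 to 802 against 747 to 920). The part of these cell types in the receptor results was not tested, and in sorted bulk samples more cells of a type and more RNA per cell cannot be told apart.

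Promoters are shown for 4 members as examples. They are S1pr3, which had no read in wild type libraries, Gpr65, which was low in all 3 of these, and the adhesion receptors Gpr56 and Gpr97, neighbours that changed in opposite directions. Gpr65, Gpr97 and Gpr56 did not have the largest changes, and the 4 do not stand for the members called, whose motif counts follow the sequences. Each sequence is the 250 bases before the start site in RefSeq, build GRCm38.p6, on the + strand, with matches to GAGGAA or its reverse complement, the core letters bound by the myeloid factor PU.1 and other ETS proteins, in capitals.
S1pr3, chr13:51408368-51408617: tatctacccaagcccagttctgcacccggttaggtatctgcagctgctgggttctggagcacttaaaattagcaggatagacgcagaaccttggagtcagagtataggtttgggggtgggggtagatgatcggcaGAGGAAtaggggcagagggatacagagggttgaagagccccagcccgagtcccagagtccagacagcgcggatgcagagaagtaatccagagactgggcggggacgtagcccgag
Gpr65, chr12:98268385-98268634: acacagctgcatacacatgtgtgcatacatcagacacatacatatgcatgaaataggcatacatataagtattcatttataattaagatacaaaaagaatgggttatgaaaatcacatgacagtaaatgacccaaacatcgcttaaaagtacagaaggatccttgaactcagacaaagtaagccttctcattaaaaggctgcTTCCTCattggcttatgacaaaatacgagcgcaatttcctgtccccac
Gpr97, chr8:95017442-95017691: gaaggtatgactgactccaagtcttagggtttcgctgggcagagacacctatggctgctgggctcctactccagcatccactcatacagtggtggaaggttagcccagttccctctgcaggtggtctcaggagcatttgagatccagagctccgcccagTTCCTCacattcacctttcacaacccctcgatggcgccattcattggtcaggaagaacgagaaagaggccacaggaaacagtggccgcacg
Gpr56, first of its start sites, chr8:94976859-94977108: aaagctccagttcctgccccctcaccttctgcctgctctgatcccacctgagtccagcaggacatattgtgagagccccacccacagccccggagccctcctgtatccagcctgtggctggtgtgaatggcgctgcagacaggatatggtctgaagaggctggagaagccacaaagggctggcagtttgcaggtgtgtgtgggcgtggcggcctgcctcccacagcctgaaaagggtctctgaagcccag
Those of S1pr3, Gpr65 and Gpr97 hold 1 match each, and that of Gpr56 holds 0. Most promoters of members called higher held no match, unlike the 3 printed.
The table matched 67 of the 86 members, with 90 promoters. Counting both strands, and letting matches of different motifs overlap, GAGGAA was found in 7 of 29 promoters of members called higher, 0 of 6 of those called lower, 16 of 39 of those not called and 23.3% of all 32851 promoters. The GATA letters AGATAA were found in 4 of 29, 0 of 6 and 6 of 39, and in 9.99% of all promoters. TTGCNNAA, read by C/EBP factors, was found in 5 of 29, 0 of 6 and 4 of 39, and in 9.56% of all. The interferon response motif, with its pair of GAAA repeats, was found in 0 of 29, 0 of 6 and 3 of 39, and in 2.98% of all.

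The counts of each class below stand beside 16.9% higher and 15.2% lower among all genes tested. Among the P2Y nucleotide receptors, 4 of 7 tested were higher in -77-/- cells and 1 was lower. P2ry2, a receptor of ATP and UTP, had 50.7, 38.9 and 47.9 in wild type and 248, 208 and 273 in -77-/- libraries. The lowest -77-/- library lay well above the highest wild type library, and the mean went from 45.8 ± 6.14 to 243 ± 32.9 (SD, n = 3; log2 fold change 2.38 with SE 0.40, limma adjusted p = 0.00034). P2ry6, the UDP receptor, lies next to it on chromosome 7 and had 0, 0.998 and 10.3 against 90.5, 36.9 and 68.3. It was near 0 in wild type replicates 1 and 2 and present in every -77-/- library (3.75 ± 5.66 to 65.2 ± 26.9; log2 fold change 4.46 with SE 1.19, limma adjusted p = 0.0095). Its call ended without -77-/- replicate 1 (limma adjusted p = 0.0506) or 3 (0.0538), in a range of 0.0019 to 0.0538 over the alternatives.

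The ADP receptors went both ways. P2ry1, which starts platelet shape change and is found on many cells, had 251, 359 and 226 in wild type and 122, 138 and 128 in -77-/- libraries. All wild type libraries were higher, and the mean fell from 279 ± 70.9 to 129 ± 8.096 (log2 fold change -1.07 with SE 0.31, limma adjusted p = 0.0153), and P2ry1 lost its call when wild type replicate 2 was left out (limma adjusted p = 0.0835; range 0.0093 to 0.0835). P2ry12, the ADP receptor of platelets and microglia, had 3.75, 0 and 0 against 27.5, 56.4 and 46.1. It was read in 1 wild type library and in all -77-/- libraries (log2 fold change 4.66 with SE 1.25, limma adjusted p = 0.0096), and the call ended without -77-/- replicate 2 (0.0627) or 3 (0.053; range 0.0017 to 0.0627). P2ry13, another ADP receptor, had 0, 2.99 and 51.3 against 101, 77.8 and 57.2. Wild type replicate 3 came close to the lowest -77-/- library, and the change (log2 fold change 3.71 with SE 1.25, limma adjusted p = 0.0341) lost its call in more alternatives than that of any other member called, namely with a pseudocount of 0.1, with edgeR (adjusted p = 0.264), with DESeq2 (0.174) and without any single library except wild type replicate 3. Without wild type replicate 1 its log2 fold change was 2.42 (limma adjusted p = 0.11), without wild type replicate 2 the adjusted p was 0.0948, and without -77-/- replicates 1, 2 and 3 in turn it was 0.12, 0.109 and 0.0848.

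P2ry14, the receptor of UDP-glucose, had 15.9, 1.996 and 132 in wild type and 148, 32.1 and 125 in -77-/- libraries, overlapping, with wild type replicate 3 well above the other wild type libraries (log2 fold change 2.17 with SE 1.25, limma adjusted p = 0.219). Without that library it was called (3.58, limma adjusted p = 0.012). P2ry4, a UTP receptor, had 17.8, 12.97 and 3.42 against 6.101, 13.6 and 0, low and overlapping (log2 fold change -1.16 with SE 1.41, limma adjusted p = 0.559). P2ry10, a receptor of lysophosphatidylserine despite its name, had 2.81, 2.99 and 0 against 6.101, 13.6 and 23.9 and was not called (log2 fold change 2.47 with SE 1.36, limma adjusted p = 0.186).

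**Figure D2:**
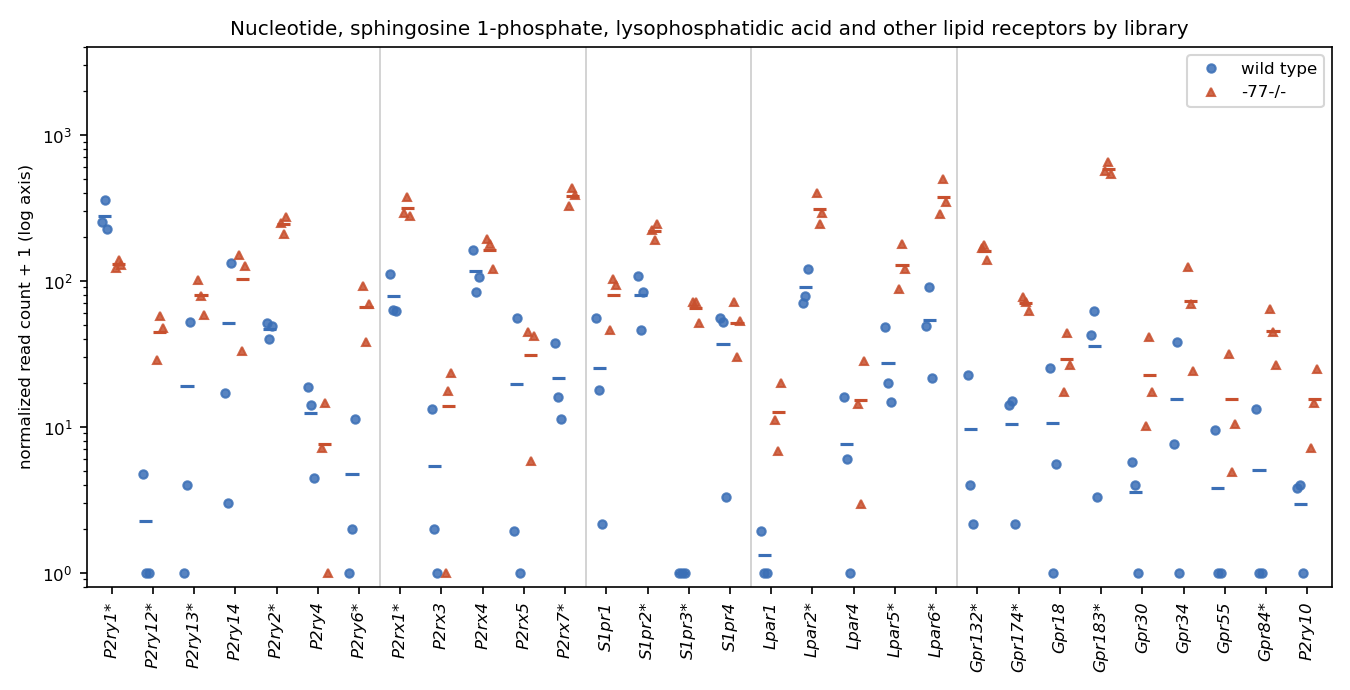
Normalized read count plus 1 (log axis) of each tested nucleotide, sphingosine 1-phosphate, lysophosphatidic acid and other lipid receptor, with a point per library, a bar at the genotype mean and an asterisk after genes called. S1pr3 sits at 0 reads in all 3 wild type libraries and at 50.4 to 71.0 in -77-/- libraries, and P2ry1 is the only asterisked gene with wild type on top.

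Both P2X channels that changed were higher in -77-/- cells, out of 5 tested. P2rx7, which opens at high ATP and triggers the inflammasome in macrophages, had 36.6, 14.97 and 10.3 in wild type and 323, 435 and 387 in -77-/- libraries. Every -77-/- library lay far above every wild type library (20.6 ± 14.04 to 382 ± 55.8; log2 fold change 4.33 with SE 0.53, limma adjusted p = 1.5e-05). P2rx1, an ATP channel of platelets and neutrophils, had 109.8, 61.9 and 61.5 against 292, 373 and 276. The groups did not overlap (77.7 ± 27.8 to 314 ± 52.3; log2 fold change 2.04 with SE 0.36, limma adjusted p = 0.00048), and both calls held in all 13 alternatives. P2rx4, an ATP channel that lies beside P2rx7 on chromosome 5, had 161, 82.8 and 105 against 191, 177 and 119.5, which overlap (log2 fold change 0.51 with SE 0.39, limma adjusted p = 0.352). P2rx5 had 0.938, 54.9 and 0 against 43.7, 4.86 and 40.98 and P2rx3 had 12.2, 0.998 and 0 against 0, 16.5 and 22.2. Both channels were uneven among libraries of a genotype and not called (limma adjusted p = 0.294 and 0.575). P2rx2 had too few reads to be tested.

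Of 4 sphingosine 1-phosphate receptors, 2 were called higher and 0 lower. S1pr3, which couples to several G proteins and is found on vessels and macrophages, had no read in the 3 wild type libraries and 70.2, 70.97 and 50.4 in the -77-/- libraries. That is 201 reads against 0, at least 62.3-fold higher when 3 reads over the wild type group are taken as the floor (limma adjusted p = 0.0012), and the call held in all 13 alternatives. S1pr2, which signals through G12 and G13 proteins and restrains cell migration, had 107, 44.9 and 83.2 in wild type and 223, 189.6 and 245 in -77-/- libraries. All -77-/- libraries were higher (78.3 ± 31.3 to 219 ± 27.9; log2 fold change 1.55 with SE 0.41, limma adjusted p = 0.0089), though not called without -77-/- replicate 3 (limma adjusted p = 0.055). S1pr1, which draws lymphocytes out of tissues towards blood, had 54.4, 16.96 and 1.14 against 44.7, 101 and 92.2. Wild type replicate 1 overlapped the lowest -77-/- library (log2 fold change 2.56 with SE 1.06, limma adjusted p = 0.0798), and without it the gene was called (3.61, limma adjusted p = 0.0287). S1pr4, a receptor of blood cells, had 54.4, 50.9 and 2.28 against 70.2, 29.2 and 52.1. Its log2 fold change of 1.198 (limma adjusted p = 0.407, SE 1.04) rested on wild type replicate 3 and was -0.15 without it (limma adjusted p = 0.877). Per kilobase of annotated exon, the level in -77-/- cells was 27.5 ± 3.501 for S1pr2, 26.1 ± 9.95 for S1pr1, 21.2 ± 8.61 for S1pr4 and 14.3 ± 2.61 for S1pr3 (mean normalized count ± SD, n = 3). S1pr3 had the lowest mean level per kilobase of the family, but its spread overlapped those of S1pr1 and S1pr4, and S1pr1, S1pr2 and S1pr4 lay within their spread of one another.

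The lysophosphatidic acid receptors gave 3 of 5 tested higher and 0 lower. Lpar6, a P2Y-like receptor, had 47.8, 89.8 and 20.5 in wild type and 284, 496 and 344 in -77-/- libraries. The groups stood well apart (52.7 ± 34.9 to 375 ± 109; log2 fold change 2.999 with SE 0.49, limma adjusted p = 0.00024). Its gene lies inside Rb1, the retinoblastoma gene, which was not called (log2 fold change -0.33 with SE 0.17, limma adjusted p = 0.158). Lpar2, of the same Edg family as the sphingosine 1-phosphate receptors, had 69.4, 77.8 and 119.7 against 398, 243 and 292. It did not overlap either (88.97 ± 26.9 to 311 ± 78.97; log2 fold change 1.804 with SE 0.36, limma adjusted p = 0.0011). Lpar5 had 46.9, 18.96 and 13.7 against 87.4, 177 and 119.5. All -77-/- libraries were higher (26.5 ± 17.9 to 128 ± 45.3; log2 fold change 2.36 with SE 0.65, limma adjusted p = 0.0111), with the call ending without -77-/- replicate 2 (limma adjusted p = 0.0852) or 3 (0.0524; range 0.0033 to 0.0852). Lpar1 had 1 read over the wild type libraries and 38 over the -77-/- libraries, a ratio of 35.1 with a counting interval of 5.93 to 1423, and was not called (limma adjusted p = 0.109). Lpar4 had 15.01, 4.99 and 0 against 13.2, 1.94 and 27.3, overlapping (log2 fold change 1.21 with SE 1.47, limma adjusted p = 0.559), and Lpar3 had too few reads to be tested, with 2 against 23, a ratio of 10.6 (2.63 to 93.0).

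Receptors of other lipids, including oxysterols, fatty acids and lysophosphatidylserine, gave 4 of 9 higher and 0 lower. Gpr183, the oxysterol receptor also called Ebi2 that positions B cells and dendritic cells in lymphoid organs, had 41.3, 60.9 and 2.28 in wild type and 563, 652 and 538 in -77-/- libraries. Its wild type libraries were low and uneven and its -77-/- libraries high and close together (34.8 ± 29.8 to 584 ± 60.1). The log2 fold change was 4.83 (SE 1.11, limma adjusted p = 0.0183) and 3.51 without wild type replicate 3, where the value was lowest. Gpr132, known from lymphocytes and macrophages, had 21.6, 2.99 and 1.14 against 168, 174 and 137. The -77-/- libraries were far above all wild type libraries (8.57 ± 11.3 to 159.8 ± 19.6; log2 fold change 4.79 with SE 0.93, limma adjusted p = 0.001). Both were called in all 13 alternatives.

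Gpr174, an X-linked lysophosphatidylserine receptor of lymphocytes, had 13.1, 13.97 and 1.14 against 76.3, 70.97 and 61.5. The groups were apart (9.41 ± 7.18 to 69.6 ± 7.49; log2 fold change 3.19 with SE 0.99, limma adjusted p = 0.0215), but leaving out -77-/- replicate 1, 2 or 3 ended the call (limma adjusted p = 0.0745, 0.0879 and 0.0786). Gpr84, a receptor of medium-chain fatty acids on activated macrophages and neutrophils, had 12.2, 0 and 0 against 63.04, 43.7 and 25.6. It was read in 1 wild type library and in all -77-/- libraries (log2 fold change 4.17 with SE 1.31, limma adjusted p = 0.0239), and its call ended with edgeR (adjusted p = 0.131), with DESeq2 (0.0543) and, in limma, without wild type replicate 2 (adjusted p = 0.0621) or -77-/- replicate 1, 2 or 3 (0.0905, 0.0905 and 0.0593). In the current annotation 39.5% of its exon bases also belong to another gene. Gpr34, a lysophosphatidylserine receptor of microglia and macrophages that is named after its values were seen, had 6.57, 36.9 and 0 against 124, 68.05 and 23.1. Its groups overlapped and it was not called (log2 fold change 3.17 with SE 1.26, limma adjusted p = 0.0693), except without wild type replicate 2 (limma adjusted p = 0.0197). The other 4 not called, Gpr18, Gpr30, Gpr55 and P2ry10, had log2 fold changes of 2.38, 2.77, 2.47 and 2.47.

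Gpr65, a proton-sensing receptor of lymphocytes and macrophages, was the member called of the 3 in its class. It had 27.2, 54.9 and 64.96 in wild type and 210.5, 574 and 476 in -77-/- libraries. The lowest -77-/- library, replicate 1, was still above every wild type library (49.01 ± 19.5 to 419.9 ± 188; log2 fold change 3.04 with SE 0.46, limma adjusted p = 0.00012), although 24.7% of its exon bases are shared with another annotated gene. Gpr4, the proton sensor of endothelium, named after its values were seen, was low and not called (log2 fold change -0.89, limma adjusted p = 0.561).

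Adhesion receptors, which are cut into an extracellular and a membrane part and signal on contact with matrix or other cells, moved in both directions. Of 8 tested, 2 were higher and 2 lower, against 16.9% and 15.2% of all genes tested. Gpr56 (Adgrg1), a receptor of stem cells, cytotoxic lymphocytes and platelets, had 1974, 2166 and 2226 in wild type and 1428, 1147 and 1170.5 in -77-/- libraries. It was lower in every -77-/- library (2122 ± 132 to 1248 ± 156; log2 fold change -0.77 with SE 0.13, limma adjusted p = 0.00041) and yet had the highest mean level per kilobase of exon of all members in both genotypes, 391 ± 24.3 and 230.3 ± 28.7, although in -77-/- cells its spread overlapped those of Gpr65, Gpr183 and Gpr141. Its neighbour Gpr97 (Adgrg3), a receptor of granulocytes that is named after its values were seen, starts 3474 bases past the annotated end of Gpr56 on chromosome 8 and had 227, 121 and 392 against 944, 745 and 838. It was higher in every -77-/- library (247 ± 137 to 842 ± 99.5; log2 fold change 1.92 with SE 0.36, limma adjusted p = 0.0019), opposite to Gpr56, and both calls held in all 13 alternatives. Gpr56 and Gpr97 are the genes whose promoters are printed above.

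Gpr125 (Adgra3) had 517, 664 and 596 in wild type and 399, 333 and 378 in -77-/- libraries. All -77-/- libraries were lower (592 ± 73.4 to 370.1 ± 33.3; log2 fold change -0.67 with SE 0.20, limma adjusted p = 0.0191), and the call was lost on leaving out wild type replicate 2 (limma adjusted p = 0.0769), -77-/- replicate 2 (0.0775) or -77-/- replicate 3 (0.0544). Its relative Gpr124 (Adgra2), a Wnt7 co-receptor of brain endothelium, had 34.7, 24.9 and 0 against 148, 188 and 126. It was higher in every -77-/- library (19.9 ± 17.9 to 154 ± 31.03), by 3.97 on the log2 scale (SE 1.19, limma adjusted p = 0.0244) and by 2.33 without wild type replicate 3, which had no read. Gpr124 was not called at a pseudocount of 0.1 (limma adjusted p = 0.118), with edgeR (0.0526) or without -77-/- replicate 1, 2 or 3 (0.0624, 0.0738 and 0.0509). Gpr98 (Adgrv1), a very long adhesion receptor of hair cells, had 182, 213 and 13.7 against 222, 374 and 268. Wild type replicate 3 stood far below the other wild type libraries, and the gene was not called (log2 fold change 1.76 with SE 1.13, limma adjusted p = 0.303).

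**Figure D3:**
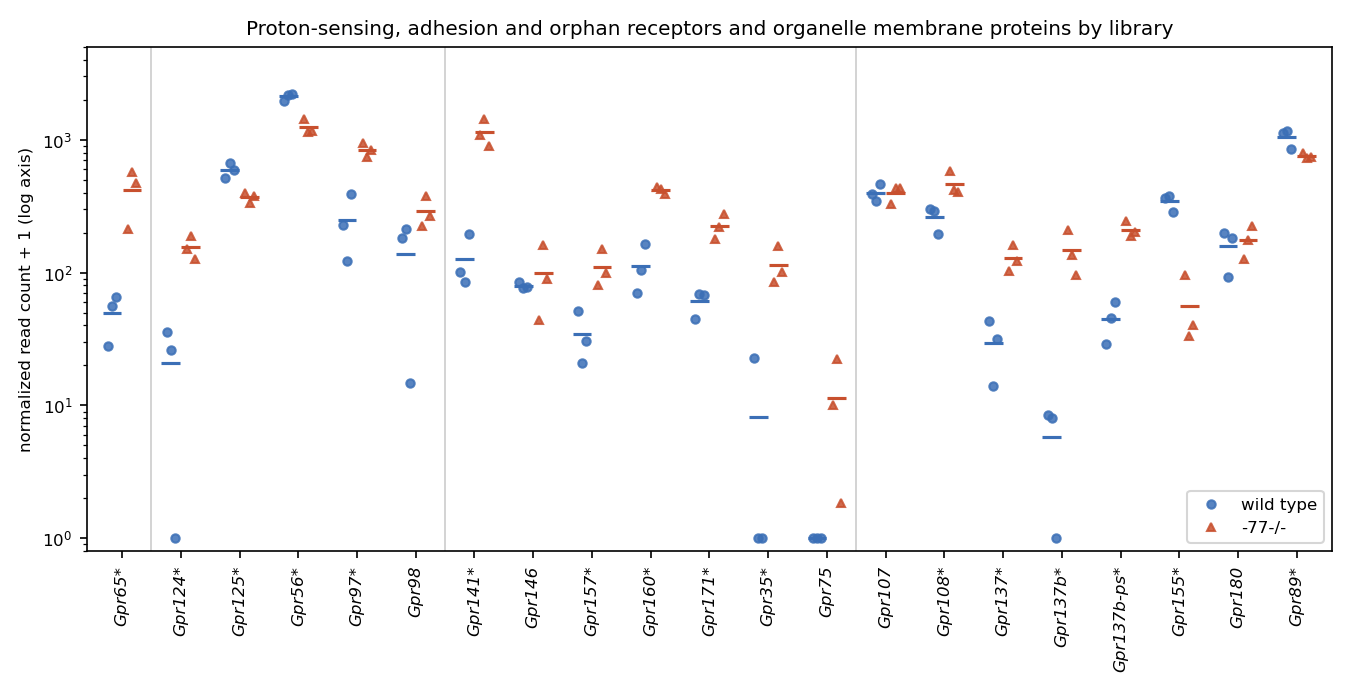
Normalized read count plus 1 (log axis) of the called proton-sensing, adhesion and orphan receptors and organelle membrane proteins, Gpr137b-ps included, with 5 members not called for comparison. Each library is a point, with a bar at the genotype mean and an asterisk after genes called. Gpr56 falls and Gpr97 rises without overlap, Gpr107 is level, and Gpr155 has the deepest fall, to 32.1 to 94.6 from 285 to 379.

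Among the 20 orphan and other receptors tested, 5 were called higher (25%, against 16.9% of all genes tested) and 0 lower (against 15.2%). Gpr141, an orphan receptor of myeloid cells, reached the highest count among the members called higher, with 100.4, 83.8 and 196 in wild type and 1083, 1430.0 and 902 in -77-/- libraries. No wild type library came near the -77-/- range (127 ± 60.6 to 1138 ± 269; log2 fold change 3.23 with SE 0.31, limma adjusted p = 1.4e-06). Gpr160 had 69.4, 103 and 164 against 437, 422 and 391. It too did not overlap (112 ± 48.02 to 417 ± 23.5; log2 fold change 1.97 with SE 0.33, limma adjusted p = 0.00033). Gpr171, named like Gpr157 after its values were seen and close to the P2ry12 cluster on chromosome 3, had 44.1, 67.9 and 67.2 against 178, 218 and 276. Again every -77-/- library was higher (59.7 ± 13.5 to 224 ± 49.2; log2 fold change 1.89 with SE 0.41, limma adjusted p = 0.0021). These 3 were called in all 13 alternatives.

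Gpr35, a receptor of tryptophan metabolites on macrophages and gut epithelium, had 21.6, 0 and 0 in wild type and 84.4, 157 and 101 in -77-/- libraries. It was read in 1 wild type library and far higher in all -77-/- libraries (log2 fold change 5.296 with SE 1.24, limma adjusted p = 0.004), a call that edgeR did not make (adjusted p = 0.0635). Gpr157 had 50.7, 19.96 and 29.6 against 80.3, 149 and 98.2. The groups did not overlap (log2 fold change 1.73 with SE 0.60, limma adjusted p = 0.0382), and the call ended with edgeR (adjusted p = 0.0634), with limma-voom (0.0562) and without wild type replicate 2 (limma adjusted p = 0.0918), -77-/- replicate 2 (0.182) or -77-/- replicate 3 (0.108). Gpr75 had no read in wild type libraries and 9.15, 21.4 and 0.854 in -77-/- libraries, at least 10.2-fold higher in reads, and was not called (limma adjusted p = 0.194). The other 14 orphan and other receptors were not called.

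The class of organelle membrane proteins under the Gpr name, in which Gpr180 and the pseudogene Gpr137b-ps are counted too, changed in both directions. Of its 8 genes tested, 4 were higher, Gpr137b-ps among them, and 2 lower. Gpr155, a cholesterol sensor of the lysosome, had 365, 379 and 285 in wild type and 94.6, 32.1 and 39.3 in -77-/- libraries. Every -77-/- library was far below the wild type range, and the mean fell from 343 ± 50.8 to 55.3 ± 34.2, the deepest fall among the 5 members called lower (log2 fold change -2.76 with SE 0.44, limma adjusted p = 0.00018; called in all 13 alternatives). Gpr137b, a lysosomal protein that acts on mTORC1 through Rag GTPases, had 7.51, 6.98 and 0 against 209, 134 and 94.8. It rose from near 0 in every wild type library (4.83 ± 4.19 to 146 ± 58.3; log2 fold change 5.097 with SE 1.02, limma adjusted p = 0.0012). Its pseudogene Gpr137b-ps had 28.1, 44.9 and 59.3 against 242, 188 and 201. It rose as well (44.1 ± 15.6 to 210.1 ± 28.4; log2 fold change 2.28 with SE 0.45, limma adjusted p = 0.0012), but 28.6% of the 50-base stretches of Gpr137b also occur in other genes, mostly in Gpr137b-ps, so the split of reads between them is uncertain. Gpr137 had 42.2, 12.97 and 30.8 against 102, 159 and 122. It was higher in all -77-/- libraries (log2 fold change 2.24 with SE 0.61, limma adjusted p = 0.011), except that the call ended without -77-/- replicate 2 (limma adjusted p = 0.0738) or 3 (0.0521), and 15.4% of its exon bases are shared with Bad.

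The remaining tested members of this class moved by less than 2-fold. Gpr108, which like Gpr180 is named after its values were seen, had 299, 289 and 194 in wild type and 578, 421 and 404 in -77-/- libraries. It was higher in each -77-/- library (261 ± 58.3 to 467 ± 95.7; log2 fold change 0.85 with SE 0.26, limma adjusted p = 0.0198), and it was not called without -77-/- replicate 1 (limma adjusted p = 0.0926). Gpr89, the Golgi pH regulator, had 1133, 1162 and 846 against 795, 725 and 737. Its groups were apart but close (log2 fold change -0.46 with SE 0.17, limma adjusted p = 0.0469), and the call ended in 7 alternatives, with a range of 0.008 to 0.161: with a pseudocount of 0.1 (limma adjusted p = 0.0503), without a filter (0.0547) and without wild type replicate 1 or 2 (0.144 and 0.161) or -77-/- replicate 1, 2 or 3 (0.0661, 0.122 and 0.125). In the annotation 24.8% of its exon bases are shared with Pdzk1. Gpr107 had 388, 343 and 466 against 330.4, 434 and 433, with equal means (399 ± 62.1 and 399 ± 59.3; limma adjusted p = 0.998), and the sign of its log2 fold change differed between limma on log2 values and the count models. Gpr180, a protein of unsettled function, was not called (log2 fold change 0.198 with SE 0.39, limma adjusted p = 0.73).

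**Figure D4:**
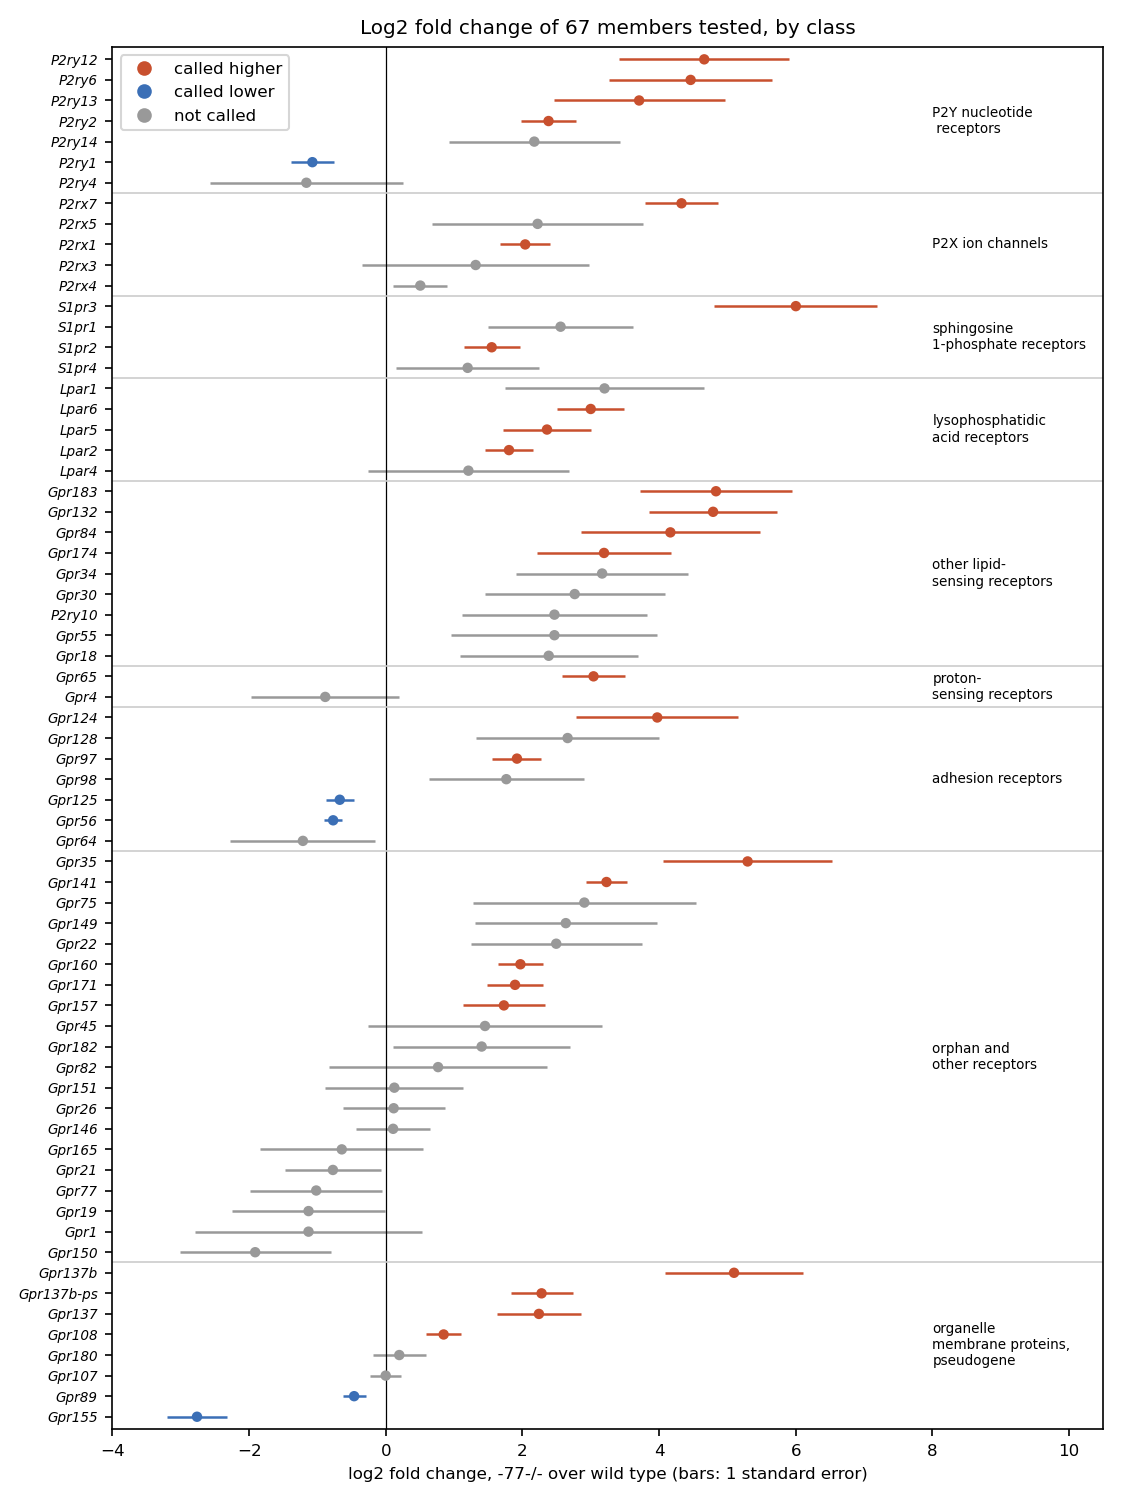
Difference between the genotypes' mean log2(value + 1), with positive values higher in -77-/-, for 67 of the 69 members tested, grouped by class, with bars of 1 standard error and colours for the call. The 5 called lower are P2ry1, Gpr125, Gpr56, Gpr89 and Gpr155, and the widest bars belong to members not called.

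Per kilobase of exon, the order of levels differed between the genotypes. In wild type cells Gpr56 was followed by Gpr89 (195 ± 32.6), Gpr108 (91.1 ± 20.4), Gpr180 (83.5 ± 30.3), Gpr125 (72.99 ± 9.04) and P2ry1 (64.96 ± 16.5; mean normalized count per kilobase ± SD, n = 3), of which the last 4 lay within their spread of their neighbours in that order. In -77-/- cells Gpr56 was followed by Gpr65 (203 ± 90.8), Gpr183 (202 ± 20.8), Gpr141 (191 ± 44.9) and Gpr108 (163 ± 33.4), which lay within their spread of one another. These lengths come from GENCODE and not from the annotation the authors used.

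Several members are neighbours, and their calls differed within a cluster as well as between clusters. A missing call is not a difference from a called neighbour. P2ry14, Gpr18 and P2rx4, not called, had log2 fold changes of 2.17 (SE 1.25), 2.38 (SE 1.30) and 0.51 (SE 0.39), in the direction of their called neighbours. On chromosome 3, Gpr171, P2ry14, P2ry13 and P2ry12 lie inside Med12l, a Mediator subunit gene on the other strand. Of these, Gpr171, P2ry13 and P2ry12 were called higher and P2ry14 was not called, while Med12l had 66.6, 142 and 51.3 in wild type and 87.4, 88.5 and 141 in -77-/- libraries (log2 fold change 0.38 with SE 0.50, limma adjusted p = 0.589). On chromosome 7, P2ry6 and P2ry2 are 21918 bases apart and both were higher. On chromosome 5, P2rx7 was higher while P2rx4, 16111 bases away, was not called. On chromosome 14, Gpr183 was higher and Gpr18, 36769 bases away, was not called. Both lie inside Ubac2, which was not called (log2 fold change 0.37 with SE 0.23, limma adjusted p = 0.233). Of the 84 members found in GENCODE, 47 overlap another gene and 26 share exon bases with one. Among the 32 called, 5 share over 10% of their exon bases, which besides Gpr65, Gpr84, Gpr89 and Gpr137 is P2ry1, at 23.1%.

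Downstream of the receptors, genes of G protein subunits changed in both directions. Of 13 alpha subunits tested, 2 were higher and 3 lower (median log2 fold change -0.31), against 16.9% and 15.2% of all genes. Gnai2, the main inhibitory alpha subunit of white blood cells, went from 3992 ± 444 to 13056 ± 260.1 (log2 fold change 1.71, limma adjusted p = 9.9e-09), and Gnaq, which activates phospholipase C, from 447 ± 41.5 to 2100.4 ± 155 (2.23, limma adjusted p = 3.8e-08). Gna12, of the G12 and G13 family, fell from 1072 ± 98.9 to 621 ± 52.4 (-0.79, limma adjusted p = 0.0016). Gna14 (65.4 to 6.95, -3.92, limma adjusted p = 0.0204) and Gnai3 (4800.3 to 3864, -0.31, limma adjusted p = 0.0413) were called lower too. Gna14 lost its call without wild type replicate 1 (limma adjusted p = 0.0909), -77-/- replicate 2 (0.0665) or 3 (0.0529), with edgeR (0.0767) and with a pseudocount of 0.1 (0.0501). Gnai3 lost its call without wild type replicate 1 or 2 (limma adjusted p = 0.13 and 0.114) or -77-/- replicate 2 or 3 (0.135 and 0.0829). Of 12 beta and gamma subunits 4 were higher and 0 lower (median 0.28), with Gng2 going from 139.6 ± 60.3 to 1455 ± 97.1 (3.46, limma adjusted p = 2.3e-07) and Gng12 from 355 to 1286 (1.85, limma adjusted p = 9.2e-07). Gngt2 (3.83 to 44.4, 3.44, limma adjusted p = 0.0454) lost its call in 7 alternatives, among them without wild type replicate 2 or 3 (0.0598 and 0.0765) or -77-/- replicate 2 or 3 (0.163 and 0.192).

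Among 7 receptor kinases and arrestins, which shut receptors off, 3 were higher and 1 lower (median 0.35), against 16.9% and 15.2% of all genes tested. Adrbk2 (GRK3) went from 102 ± 21.7 to 1123 ± 192 (log2 fold change 3.46, limma adjusted p = 7.8e-08) and Adrbk1 (GRK2) from 1085 ± 37.97 to 2977 ± 267 (1.45, limma adjusted p = 3.9e-07). The arrestins changed in opposite directions, Arrb1 from 7858 ± 618 to 1732 ± 87.1 (-2.18, limma adjusted p = 1.9e-09) and Arrb2 from 381 ± 75.7 to 900.5 ± 99.1 (1.25, limma adjusted p = 0.00022). Of 15 effectors 8 were higher and 2 lower (median 1.16). Prex1, a Rac activator driven by beta-gamma subunits, went from 572 ± 176 to 3101 ± 267 (2.48, limma adjusted p = 7.5e-07), Pik3r6, an adaptor of PI3-kinase gamma, from 14.9 ± 13.4 to 317 ± 79.7 (5.26, limma adjusted p = 0.0043, and 0.0665 with a pseudocount of 0.1), and Arhgef11, a guanine nucleotide exchange factor, from 189.7 to 739.6 (1.97, limma adjusted p = 9.6e-06). Arhgef12, a close relative of Arhgef11, fell from 978 ± 189 to 61.00 ± 48.9 (-4.301, limma adjusted p = 0.00028), and Adcy6, an adenylyl cyclase, from 878 ± 106 to 103 ± 36.4 (-3.12, limma adjusted p = 6.0e-07).

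Genes that make, move or destroy the ligands changed in both directions. Of 16 genes of purine release, breakdown and adenosine sensing, 5 were higher and 2 lower (median 1.05), against 16.9% and 15.2% of all genes tested. Entpd1 (CD39), which removes extracellular ATP and ADP, went from 25.3 ± 7.795 to 281 ± 119 (log2 fold change 3.36, limma adjusted p = 0.00014), the adenosine receptor Adora3 from 12.9 ± 10.6 to 228 ± 66.3 (4.42, limma adjusted p = 0.0004), and Panx1, an ATP release channel, from 108 to 340.4 (1.67, limma adjusted p = 0.00098). Slc29a1 (ENT1), the adenosine transporter of red cells, fell from 2032 ± 189 to 376 ± 168 (-2.53, limma adjusted p = 8.1e-05). The nucleotide hydrolase Enpp3 (19.8 to 0.569, -3.88, limma adjusted p = 0.0381) lost its call in 9 alternatives, among them each of the 6 in which a library was left out (limma adjusted p = 0.0792, 0.13 and 0.104 without the wild type and 0.0642, 0.0953 and 0.0536 without the -77-/- libraries).

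Of 14 genes of sphingosine 1-phosphate synthesis, export and breakdown, 4 were higher and 3 lower (median 0.46), against 16.9% and 15.2% of all genes tested. Both exporters called were lower: Mfsd2b, the exporter of red cells and platelets, fell from 1614 ± 93.4 to 95.2 ± 27.4 (log2 fold change -4.11, limma adjusted p = 1.0e-08), and Spns2, the exporter of endothelium, from 578 ± 161 to 260.1 ± 98.3 (-1.19, limma adjusted p = 0.0057). The phosphatase Sgpp1 fell from 1961 to 801 (-1.29, limma adjusted p = 5.2e-06). Sphk1, the kinase that makes the lipid, is named after its values were seen and had 1101, 1113 and 1472 against 105, 0.972 and 28.2, without overlap and without a call (log2 fold change -6.06 with SE 1.63, limma adjusted p = 0.053), though it was called with edgeR (adjusted p = 0.0436), DESeq2 (0.0015) and limma-voom (7.1e-05) and, in limma, without -77-/- replicate 1 (0.0082) or 2 (0.00025). The lyase Sgpl1 went from 579.5 ± 58.3 to 1649 ± 76.6 (1.51, limma adjusted p = 1.8e-06) and the lysosomal ceramidase Asah1 from 307 ± 55.8 to 1524 ± 164 (2.32, limma adjusted p = 2.1e-07). Asah2 (32.9 to 117, 2.49, limma adjusted p = 0.0308) stood at 1.54 when wild type replicate 3 was left out (limma adjusted p = 0.0554), and it also lost its call without wild type replicate 2 (0.0597), without -77-/- replicate 1, 2 or 3 (0.0938, 0.112 and 0.0804), with edgeR (0.118) and with DESeq2 (0.0732).

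Of 6 genes of lysophosphatidic acid and phospholipid synthesis, 2 were higher and 2 lower (median -0.74), against 16.9% and 15.2% of all genes tested. Agpat2, which uses lysophosphatidic acid, went from 88.1 ± 25.7 to 236 ± 33.3 (log2 fold change 1.44, limma adjusted p = 0.007) and the phospholipase Pla2g4a from 525 ± 58.9 to 981 ± 138 (0.898, limma adjusted p = 0.0012). The phospholipase Pla2g6 fell from 322 ± 47.8 to 117 ± 11.9 (-1.45, limma adjusted p = 0.0016) and Gpam, which makes lysophosphatidic acid from glycerol phosphate, from 1048 ± 96.9 to 500.4 ± 143 (-1.097, limma adjusted p = 0.00066).

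**Figure D5:**
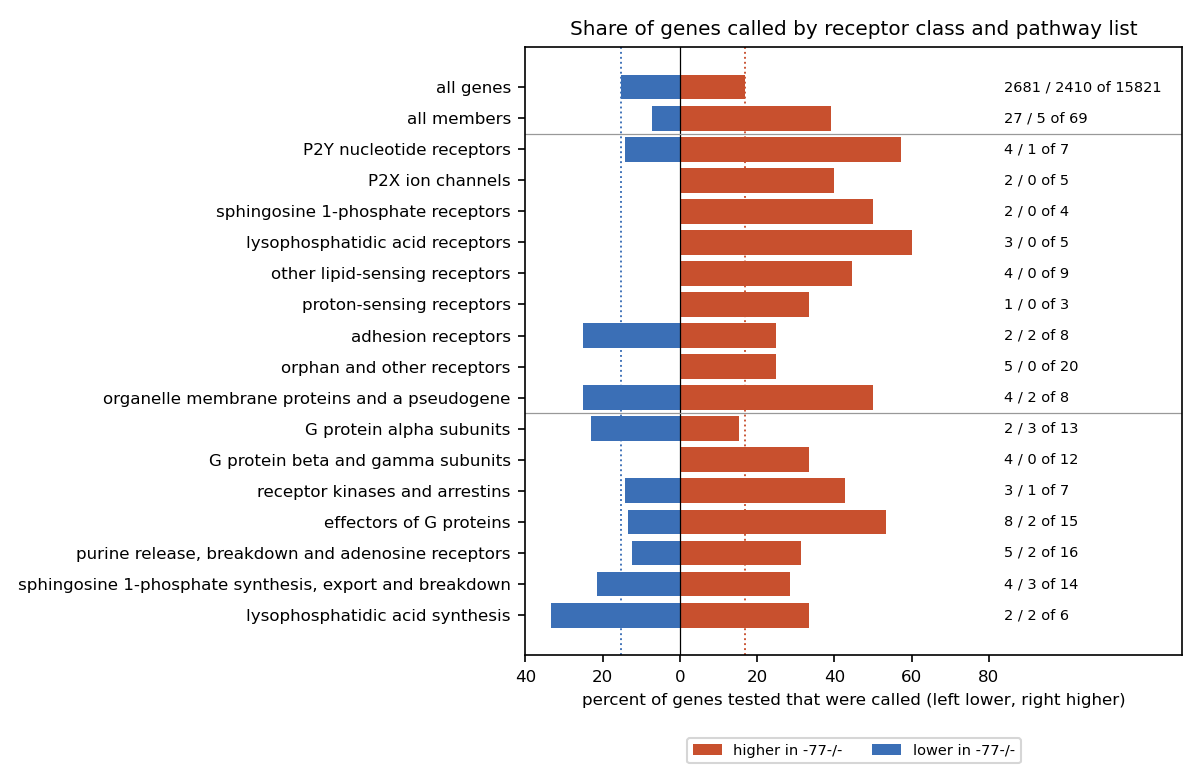
Percent of the genes tested that were called higher (right) or lower (left) in -77-/- cells for all genes, all members, each receptor class and each pathway list, with dotted lines at the shares over all genes. The 27 higher and 5 lower of 69 members stand beside 2681 and 2410 of 15821 genes.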

How the data were processed

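The members and the gene lists were chosen with earlier results of these data known. RNA of sorted fetal liver cells was read from 10 ng of total RNA per library using the NuGEN Ovation single cell system and 50 nt single reads, per the labels' protocols. The submitters' processing notes name STAR 2.5, RSEM 1.2.31, Bowtie, DESeq2 and the mm9 build, with no roles given. Strand and gene annotation are items not given in the sources used here. A single deposited table held a normalized signal per gene and library that the authors made by dividing counts by 1 size factor per library, between 0.878 and 1.17. In each library 100% of the values were whole reads at a tolerance of 0.01, and these recovered reads may be rounded expected counts. The authors' log2 fold changes and adjusted p-values were deposited in the same table. Of its 19444 rows, 8 had cells moved sideways and were left out, and 247 repeat a symbol, so genes were followed by Ensembl ID.

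Since the deposited values are not counts, the test was limma 3.58.1 (R 4.3.3) on log2(value + 1), with its trend option and robust moderation, in place of the count test written first, and was tested on simulated data. Genes with a mean of at least 10 in the higher genotype entered, and calls needed a Benjamini-Hochberg adjusted p of 0.05 over all of them. The log2 fold changes understate changes of low genes and, where libraries are uneven, can be larger than the ratio of means. A floor of 3 reads was used for genes without a read, equal to a value of 2.56 to 3.42 in 1 library. Intervals are exact at 95%, and intervals and floors cover counting error only. Replicates were numbered in record order, so no samples were paired. The 13 alternatives were pseudocounts of 0.1 and 5, no filter, a minimum mean of 50, edgeR 4.0.16, DESeq2 1.42.0 and limma-voom on recovered reads, and each library left out in turn. Members named were all tested P2rx, P2ry, S1pr and Lpar genes, the 12 Gpr genes with the largest change among those called in each direction, tested genes without a read in a genotype, Gpr genes not called with a mean of at least 200, and 3 called genes per pathway list and direction. Others are said to be named after their values were seen, or are given by log2 fold change alone. Overlaps, neighbours within 100000 bases and exon lengths came from GENCODE vM21, build GRCm38, matched by Ensembl ID for 84 of 86 members, and promoters from RefSeq. A few items are not reported here.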

Additional observations from a re-analysis of the deposited data

How the results depend on the processing

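Of the 32 calls on members, 17 (15 higher and 2 lower) were made in every one of the 13 alternatives that gave a p. The number of members called higher was 27 and ran from 22 with edgeR to 27 over the other pseudocounts, filters and tools, and from 17 to 28 when single libraries were left out. The number called lower was 5 and ran from 4 to 5 and from 2 to 5. Without -77-/- replicate 3 there were 17 called higher and 3 lower, without wild type replicate 2 there were 2 called lower, and without -77-/- replicate 2 there were 3. With fewer libraries the test has fewer degrees of freedom. Over all genes tested, 1984 to 2807 were called higher and 1912 to 2501 lower, within 1.5 times of the 2681 and 2410. The log2 fold change of Gpr107, -0.00093, turned sign with edgeR (4.79e-05), DESeq2 (0.000857), limma-voom (0.0117), without wild type replicate 3 (0.12) and without -77-/- replicate 1 (0.13), and ran from -0.10 to 0.13 over the libraries left out. That of S1pr4 was -0.15 without wild type replicate 3, in a range of -0.15 to 1.89, and that of Gpr180 was -0.15 without wild type replicate 2, in a range of -0.15 to 0.41. The cause of these changes was not tested. For the genes tabulated under every alternative, which leave out some members not called, and for the pathway lists, 1190 values kept their direction and side of the threshold, 82 lost a call, 10 gained one, 7 (those above) turned sign and 15 list counts moved by over 1.5 times. Among the other members tested, the sign also differed between alternatives for Gpr26, Gpr82, Gpr146, Gpr151 and Gpr165, which were not called. The median log2 fold change of all genes tested was -0.0045 to 0.155 over the settings. No paired analysis was possible because the labels give no replicate numbers shared between the genotypes. Depth limits members with a mean under 50, most of which were not called.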
